A study of Mus musculus with 24 samples.

Results

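The choroid plexus genes described here are 9 genes known as markers or products of that tissue: Ttr, Clic6, Folr1, Kcne2, Kcnj13, Kl, Enpp2, Aqp1 and Igf2. Members were the probe sets annotated with exactly 1 of these symbols, which gave 14 of the 45101 probe sets on the array and 8 of the 9 genes. Enpp2 carried no such probe set in the annotation used and was not analysed here. The 14 probe sets comprised 4 for Ttr, 2 each for Clic6, Kl and Igf2, and 1 each for Folr1, Kcne2, Kcnj13 and Aqp1. A filter on dim probe sets kept 12 of them, and left out the dimmer probe set of Kl and of Igf2. Each gene is represented by its brightest probe set unless another is named.

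The data are 24 one-colour Affymetrix arrays that measured transcripts in total RNA of dissected mouse brain, from a cross of C57BL/6J and A/J mice that was selected for contextual fear conditioning. Labels divide them into 4 groups of 6 arrays: amygdala of high freezing mice, amygdala of low freezing mice, hippocampus of high freezing mice and hippocampus of low freezing mice. Freezing is the immobility a mouse shows in a place where it has received a shock. All groups share the cross, and age, sex, the dissection and the number of animals behind an array are not given in the sources used here. Each array carries a number, 1 to 6 for low freezing and 7 to 12 for high freezing in both regions, and arrays are called by it here (hippocampus low 4).

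The choroid plexus is a folded sheet of epithelium that hangs in the ventricles of the brain and secretes cerebrospinal fluid. Its cells move sodium, bicarbonate, chloride and potassium across the sheet, with water following, and carry hormones and vitamins between blood and fluid. In the mouse, the lateral ventricle and its plexus lie beside the hippocampus, and the temporal end of the ventricle lies close to the amygdala. In bulk tissue, fewer cells of a type and less RNA per cell cannot be told apart.

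Promoter sequences are shown for 3 genes that differed between the regions and varied together from array to array (Kcnj13, Kcne2 and Kl). Each is the 250 bases before a RefSeq start, mouse build GRCm38.p6, written 5′ to 3′ on the gene's strand, and capitals mark a motif match.
Kcnj13, chr1:87394730-87394979, minus strand: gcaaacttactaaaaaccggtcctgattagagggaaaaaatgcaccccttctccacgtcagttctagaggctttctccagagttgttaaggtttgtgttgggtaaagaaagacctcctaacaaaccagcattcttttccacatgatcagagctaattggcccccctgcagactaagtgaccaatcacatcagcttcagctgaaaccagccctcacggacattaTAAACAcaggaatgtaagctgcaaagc
Kcne2, chr16:92292139-92292388, plus strand: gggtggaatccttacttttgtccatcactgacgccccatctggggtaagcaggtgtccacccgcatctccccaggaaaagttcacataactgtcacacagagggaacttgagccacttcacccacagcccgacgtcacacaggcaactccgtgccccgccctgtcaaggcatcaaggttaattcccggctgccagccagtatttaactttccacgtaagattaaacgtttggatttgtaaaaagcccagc
Kl, chr5:150952357-150952606, plus strand: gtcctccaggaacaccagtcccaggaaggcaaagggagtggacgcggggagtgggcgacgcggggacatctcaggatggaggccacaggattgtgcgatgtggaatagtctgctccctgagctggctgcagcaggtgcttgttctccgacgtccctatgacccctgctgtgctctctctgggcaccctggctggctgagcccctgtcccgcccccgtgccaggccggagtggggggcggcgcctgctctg
Windows were searched on both strands for TAATCC, the core of the site bound by OTX factors (Otx2 is a determinant of the choroid plexus), and for TGTTTA, the core of the forkhead site. RefSeq windows were at hand for 5 of the genes, 9 windows in all. The match in Kcnj13, whose first base lies 27 bases before the start, was the forkhead core on the opposite strand, and none of the other 8 windows held either motif. Over all 32817 windows of that length, 6.25% held the OTX core and 12.0% the forkhead core. A match describes these letters only. Kcne2 and Clic6 lie on chromosome 16 in GRCm38.p6, with 11 annotated genes starting between them.

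The first comparison asked how the 2 regions differ. All 8 genes were higher in the amygdala arrays than in the hippocampus arrays, by 2.80-fold to 12.7-fold. The change passed the threshold for each of the 8 genes (limma, adjusted p between 1.29e-15 and 2.26e-05), and did so without the filter too. Kcne2 and Aqp1 were kept by the filter only through their amygdala arrays, as their mean over the hippocampus arrays lay under its limit of 24.2 units, and the other 6 were kept on either region alone. The median of the 8 differences was 2.65 on the log2 scale, against 0.02 over all 27022 probe sets tested. Regional differences were common on these arrays, since 51.4% of all probe sets tested were called and 27.2% were called higher in the amygdala. Calls that were also at least 2-fold higher made up 3.45%, and all 8 genes met that rule. Folds are on the scale of log2(intensity + 16), which understates the change of dim probe sets, and the threshold was an adjusted p of 0.05.

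Ttr encodes transthyretin, the carrier of thyroxine and of retinol-binding protein that the plexus secretes into the fluid. Its brightest probe set read 12546, 14393 and 18279 intensity units in the amygdala of high freezing mice (lowest, median and highest of 6 arrays), and 13030, 14881 and 15930 in the amygdala of low freezing mice. In the hippocampus it read 2047, 8304 and 13062 units in high freezing mice, and 1776, 3410 and 11595 in low freezing mice. The amygdala arrays were close to each other and the hippocampus arrays were spread out, and the regions overlapped, as hippocampus high 9 lay above amygdala high 12 and amygdala low 3. The difference between regions was 1.49 ± 0.264 on the log2 scale (SE), or 2.80-fold (limma, adjusted p = 2.26e-05).

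The other 3 probe sets of Ttr gave 2.06, 2.25 and 2.93 on the log2 scale, or 4.18-fold, 4.77-fold and 7.64-fold, and for each of them every amygdala array lay above every hippocampus array. The regional fold of Ttr therefore depended on the probe set by more than 1.5 times. On the amygdala arrays the brightest probe set stood at 82.1% to 96.3% of the highest value on its array, and on the hippocampus arrays at 9.39% to 86.3%. The part of the upper end of the scale in these folds was not tested.

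From a list of 10 genes for thyroid hormone and retinol handling, 6 were tested, of which 1 rose and 5 fell in the amygdala relative to the hippocampus (limma). Without a filter 7 were tested, of which 1 rose and 3 fell. Crym, which binds thyroid hormone in the cytosol, was 4.40-fold lower, and Slco1c1, a thyroxine transporter of brain barriers, was higher by 0.59 on the log2 scale (adjusted p = 2.22e-17 and 1.32e-08). Thra, a thyroid hormone receptor, was 1.53-fold lower and Dio2, the enzyme that activates thyroxine, 1.25-fold lower (adjusted p = 9.48e-11 and 9.47e-05). The median of this list was -0.32 on the log2 scale, against 1.49 for Ttr.

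Clic6, a chloride intracellular channel protein of secretory epithelia, showed the largest difference of the 8 genes. It read 459, 794 and 1148 units in the amygdala of high freezing mice (lowest, median and highest) and 582, 861 and 1128 in that of low freezing mice. In the hippocampus it read 32.7, 50.9 and 93.3 units in high freezing mice and 14.996, 32.2 and 134.6 in low freezing mice. The regions did not overlap, and the highest hippocampus array, low 4, lay well under the lowest amygdala array. The difference was 3.66 ± 0.196 on the log2 scale (SE), or 12.7-fold (limma, adjusted p = 1.29e-15), rank 5 of the 27022 probe sets when ordered from the highest in the amygdala. Its dimmer probe set gave 4.92-fold.

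Among the 8 genes, 7 had every amygdala array above every hippocampus array at the brightest probe set, and Ttr was the exception. Over all probe sets tested, 13.2% did not overlap between the regions and 7.2% did so with the amygdala higher.

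Kcnj13 encodes the inward rectifier potassium channel Kir7.1 of the apical membrane of the plexus. It read 508, 849 and 1155 units in the amygdala of high freezing mice and 607, 866 and 1279 in that of low freezing mice (lowest, median and highest). The hippocampus values were 31.7, 91.7 and 127.0 units in high freezing mice and 27.0, 55.4 and 193.3 in low freezing mice. Both amygdala groups stood clear of both hippocampus groups. The difference was 3.30 ± 0.212 (SE), or 9.84-fold (limma, adjusted p = 7.27e-14), rank 9 of the 27022.

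Kcne2, a single-span subunit that partners potassium channels in the plexus and the stomach, read 140, 332 and 428 units in the amygdala of high freezing mice and 195, 313 and 362 in that of low freezing mice. In the hippocampus the values were 20.3, 24.9 and 40.3 units in high freezing mice and 1.19, 12.2 and 66.0 in low freezing mice. Some of these hippocampus values are as dim as probe sets that the filter left out. The difference was 3.05 ± 0.192 (SE), or 8.29-fold (limma, adjusted p = 4.56e-14).

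Aqp1 is the water channel of the apical membrane. Its values were 78.0, 141 and 213 units in the amygdala of high freezing mice and 79.3, 163 and 201 in that of low freezing mice. In the hippocampus they were 8.68, 27.9 and 31.7 units in high freezing mice and 9.23, 15.7 and 39.7 in low freezing mice. The regions did not overlap, and the difference was 2.10 ± 0.169 (SE), or 4.29-fold (limma, adjusted p = 1.05e-11).

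From a list of 12 other genes of fluid secretion, 9 were tested, of which 5 rose and 2 fell in the amygdala (limma). Slc12a2, the sodium, potassium and chloride cotransporter NKCC1, was 3.33-fold higher (adjusted p = 9.04e-19), and Slc4a2, an anion exchanger of the basolateral membrane, was 3.17-fold higher (adjusted p = 1.44e-16). Car2, a cytosolic carbonic anhydrase that oligodendrocytes also make, was 2.36-fold higher, and Slc5a3, a myo-inositol transporter, 1.71-fold higher (adjusted p = 5.01e-19 and 2.05e-11). The 2 that fell were Slc4a10, 1.25-fold lower, and Atp1b1, 1.10-fold lower (adjusted p = 8.00e-06 and 0.0461). The median of the 9 was 0.46 on the log2 scale.

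Folr1 encodes the folate receptor alpha, through which the plexus passes folate into the fluid. It read 327, 489 and 721 units in the amygdala of high freezing mice and 287, 499 and 583 in that of low freezing mice (lowest, median and highest). In the hippocampus it read 6.04, 53.9 and 79.8 units in high freezing mice and 15.5, 34.0 and 119 in low freezing mice. The regions did not overlap, and the difference was 3.17 ± 0.224 (SE), or 9.02-fold (limma, adjusted p = 6.55e-13). Of 5 other folate genes tested, 3 rose and none fell in the amygdala. Slc46a1, the proton-coupled folate transporter, was 1.61-fold higher (adjusted p = 2.06e-09), Aldh1l1, an astrocyte folate enzyme, 1.34-fold higher (adjusted p = 1.41e-07) and Mthfd1 1.21-fold higher (adjusted p = 3.03e-04).

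Kl encodes klotho, a co-receptor for FGF23 that is also shed into the fluid. Its brighter probe set read 245, 446 and 719 units in the amygdala of high freezing mice and 239, 473 and 850 in that of low freezing mice. The hippocampus values were 72.4, 82.7 and 119 units in high freezing mice and 49.0, 61.6 and 143 in low freezing mice. No hippocampus array reached the lowest amygdala array, and the difference was 2.24 ± 0.180 (SE), or 4.72-fold (limma, adjusted p = 1.12e-11). The dimmer probe set of Kl had a mean of 3.27 units on amygdala arrays and 1.06 on hippocampus arrays and was not kept by the filter.

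Of 3 FGF receptor genes tested beside Kl, Fgfr2 was 2.38-fold higher, Fgfr1 1.38-fold lower and Fgfr3 1.17-fold higher in the amygdala (limma, adjusted p = 8.31e-16, 2.58e-06 and 0.0107). The lysophosphatidate system, which Enpp2 feeds by making lysophosphatidate, had 5 genes tested, of which 3 rose and 1 fell. Lpar1, a receptor that oligodendrocytes carry, was 4.18-fold higher (adjusted p = 6.26e-20).

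Igf2, a growth factor that the plexus and the meninges secrete into the fluid, had the smallest difference beside Ttr. It read 463, 720 and 1091 units in the amygdala of high freezing mice and 491, 817 and 1012 in that of low freezing mice. In the hippocampus it read 174, 256 and 371 units in high freezing mice and 166, 284 and 364 in low freezing mice. The regions did not overlap, and the difference was 1.51 ± 0.152 (SE), or 2.85-fold (limma, adjusted p = 1.28e-09). A dimmer probe set, which the filter left out, averaged 18.9 units on amygdala arrays and 8.71 on hippocampus arrays.

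Among 9 other genes of the insulin-like growth factor system, 4 rose and 4 fell in the amygdala (limma). The binding proteins Igfbp2 and Igfbp7 were 3.49-fold and 1.71-fold higher, and Igfbp4 was 1.72-fold lower (adjusted p = 1.03e-13, 2.72e-11 and 1.14e-09). Igf1 was 1.40-fold lower (adjusted p = 4.85e-04).

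**Figure D1:**
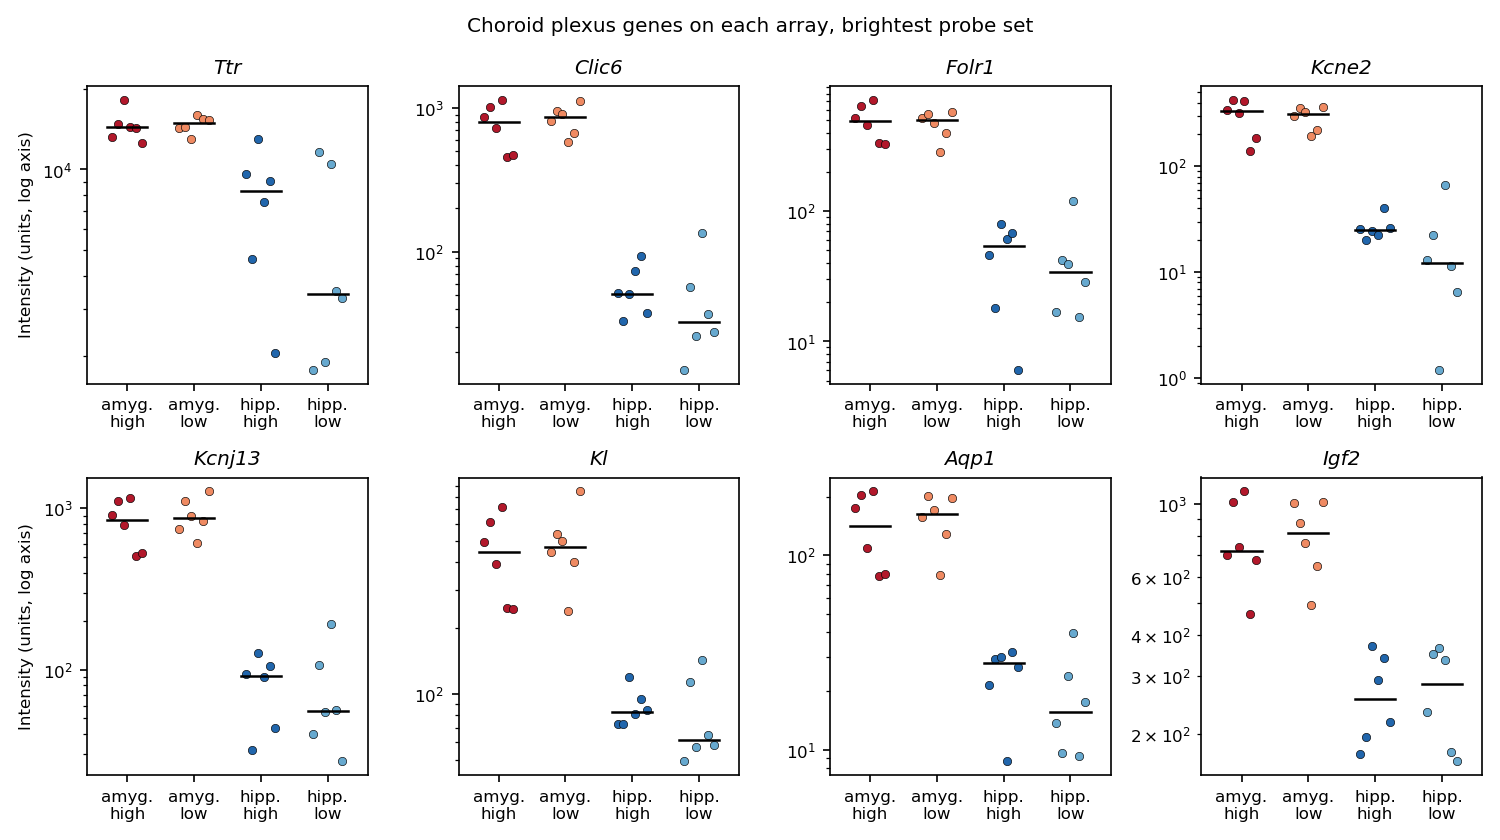
Intensity (log axis) of the 8 genes at their brightest probe set, 1 point per array, in amygdala of high and of low freezing mice and in hippocampus of high and of low freezing mice, with 6 arrays a group. Lines mark group medians. Amygdala points lie above hippocampus points in every panel but that of Ttr, where hippocampus high 9 (13062 units) lies within the amygdala range.

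**Figure D2:**
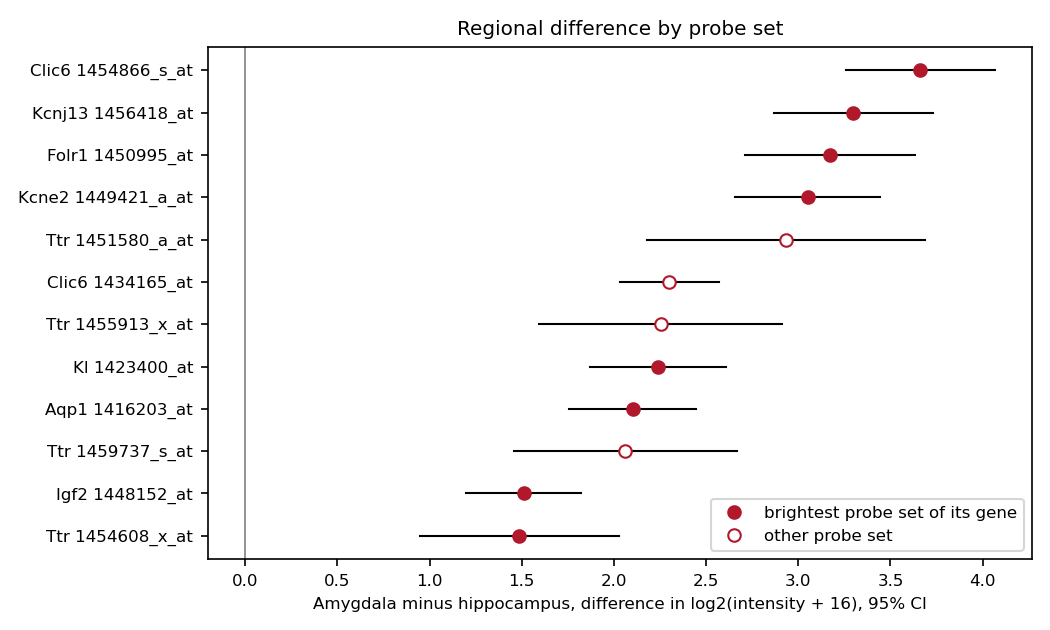
Amygdala minus hippocampus difference in log2(intensity + 16) with its 95% confidence interval from limma, for the 12 probe sets kept. Filled points are the brightest probe set of a gene. All 12 intervals lie above 0, and the estimates run from 1.49 (Ttr) to 3.66 (Clic6).

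The label of choroid plexus was compared with 33 further genes of that epithelium, a list chosen with earlier results of these data known and so no independent check. Of the 27 kept by the filter, 7 (Otx2, Cldn1, Cldn2, Slc4a5, Steap1, Slc16a8 and Col8a1) were kept only through their amygdala arrays, as their hippocampus mean lay under 24.2 units. The other 20 all rose in the amygdala (limma). Without a filter, a fit added after the values had been seen, 30 of the 31 genes with a probe set rose and none fell, with a median of 1.51 on the log2 scale. Ecrg4, a secreted peptide precursor abundant in the plexus, was 17.2-fold higher (adjusted p = 8.32e-14). Calml4 was 7.83-fold higher, Sostdc1, a secreted BMP and WNT antagonist, 7.75-fold higher and Slc4a5, a bicarbonate cotransporter, 6.35-fold higher (adjusted p = 7.61e-15, 4.26e-13 and 1.79e-13). Summed over the 27 genes kept, intensity ran from 5609 to 10784 units in amygdala high, from 5467 to 10187 in amygdala low, from 1845 to 2604 in hippocampus high and from 1779 to 2860 in hippocampus low. These ranges overlapped within a region and not between regions. The sum holds the 7 genes kept only through the amygdala, so that its gap between regions is no further support.

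The lining of the ventricle moved the same way. Of 14 genes of the ciliated ependyma, 13 rose and none fell in the amygdala without a filter, with a median of 0.89. The filter kept 12, of which Foxj1, Hydin and Mlf1 were kept only through their amygdala arrays. The other 9 all rose. Dynlrb2, a dynein light chain of cilia, was 3.18-fold higher and Cfap126 2.88-fold higher (limma, adjusted p = 3.29e-12 and 3.13e-09). Foxj1, the regulator of motile cilia and 1 of the 3 genes kept only through the amygdala, was 2.24-fold higher. The summed ependymal intensity was 887 to 1473 units in amygdala high and 1004 to 1528 in amygdala low, against 395 to 666 in hippocampus high and 392 to 558 in hippocampus low. This sum is over the 12 genes kept and so holds the 3 kept only through the amygdala.

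Oligodendrocyte genes also differed between the dissections. All 12 oligodendrocyte genes tested rose in the amygdala, and their summed intensity was 39765 to 54358 units in amygdala high and 42011 to 51827 in amygdala low, against 15073 to 19264 in hippocampus high and 15109 to 20180 in hippocampus low. Of 18 genes of leptomeninges and stroma, 5 rose and 2 fell, with a median of -0.01. Over all 12490 genes at their brightest probe set 3976 rose and 3073 fell, with a median of 0.04, so that this list did not stand out as a set. Igfbp2 was 3.49-fold higher, Dcn, a matrix proteoglycan, 2.72-fold lower and Bmp6 1.94-fold higher (adjusted p = 1.03e-13, 2.93e-13 and 2.29e-08). The part of these tissues in the regional difference of the choroid plexus genes was not tested.

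The regional labels were checked against genes of each region. All 8 hippocampus genes tested fell in the amygdala relative to the hippocampus (median -2.72 on the log2 scale), and all 7 genes of central amygdala and striatum rose (median 3.02). Of those 7, Drd2 and Isl1 were kept by the filter only through their amygdala arrays, and the other 5 all rose. Of 5 basolateral amygdala genes, 2 rose and 2 fell. Among 9 genes of hypothalamus and thalamus, which border the amygdala, 5 rose and 2 fell, and among 8 of endothelium and blood 3 rose and none fell. Avp and Trh of the former were kept only through their amygdala arrays, and of the other 7 genes 3 rose.

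Within a region, the arrays differed from each other in these genes more than in most. In the amygdala the SD within groups was 0.42 to 0.60 on the log2 scale for the 7 genes other than Ttr, against a median of 0.20 over all probe sets kept. In the hippocampus it was 0.40 to 0.81, against a median of 0.19. Ttr was the extreme case, with 1.07 in the hippocampus (rank 20 of 27022 from the widest) and 0.15 in the amygdala. The other 3 probe sets of Ttr ranked 4, 11 and 16 in the hippocampus.

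Array by array, Ttr in the hippocampus read 9647, 4617, 13062, 7537, 9070 and 2047 units on high 7 to high 12. On low 1 to low 6 it read 1776, 11595, 1898, 10470, 3512 and 3309. Both freezing groups held bright and dim arrays, 13062 being 7.36 times 1776. In the amygdala the highest array was 1.46 times the lowest.

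The same hippocampus arrays were bright for other genes. Hippocampus low 4 had the highest value of the 12 for Clic6 (134.6 units), Folr1 (119), Kcne2 (66.0), Kcnj13 (193.3), Kl (143) and Aqp1 (39.7). Averaged over the 8 genes, each scaled to SD 1 over the 12 hippocampus arrays, the brightest arrays were low 4 (1.58 SD units), high 9 (0.87) and high 11 (0.87). The dimmest were low 1 (-0.99), low 6 (-0.88) and low 5 (-0.76).

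In the amygdala the brightest by this average were high 10 (1.04), low 6 (1.00) and high 8 (0.86), and the dimmest were high 11 (-1.40), high 12 (-1.29) and low 4 (-1.04). Thus low 4 was the brightest hippocampus array and among the dimmest amygdala arrays. Over the 12 numbers the averages of both regions had r = -0.39 (permutation p = 0.209) and rho = -0.23 (permutation p = 0.474), and r = -0.46 without the 2 farthest. The labels do not say that a number is an animal.

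**Figure D3:**
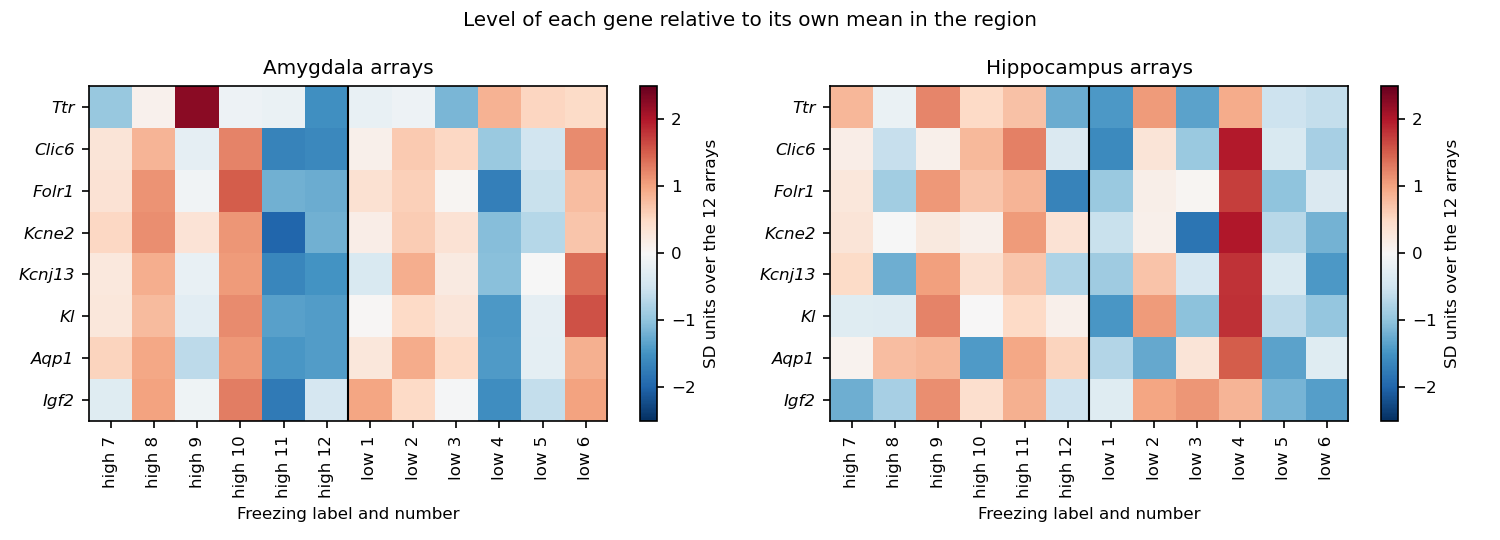
Level of each gene on each array, as log2(intensity + 16) minus the mean of the 12 arrays of that region and divided by their SD, with high freezing arrays left of low freezing arrays. In the amygdala panel high 11, high 12 and low 4 are low for the genes other than Ttr, and in the hippocampus panel low 4 is above the mean for all 8 genes and the highest array for 6 of them.

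Whether arrays bright for Ttr were bright for the other genes was tested over the 12 arrays of each region (14 correlations, 7 a region). In the hippocampus 5 of 7 passed the threshold after Benjamini-Hochberg adjustment: Kcnj13 with r = 0.81 and rho = 0.83 (permutation p = 0.0025, adjusted p = 0.0118), Kl with r = 0.80 and rho = 0.85 (permutation p = 0.0025, adjusted p = 0.0118), Clic6 with r = 0.78 and rho = 0.77 (permutation p = 0.00253, adjusted p = 0.0118), Folr1 with r = 0.77 and rho = 0.76 (permutation p = 0.00385, adjusted p = 0.0135) and Kcne2 with r = 0.66 and rho = 0.60 (permutation p = 0.0159, adjusted p = 0.0445). For Kcne2 the rank correlation did not pass after adjustment (adjusted p = 0.118). Igf2 had r = 0.39 and rho = 0.36 and Aqp1 r = 0.17 and rho = 0.29, and neither passed (adjusted permutation p = 0.475 and 0.979).

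Without the 2 arrays farthest from the median of Ttr, r was 0.84 for Kcnj13 and 0.87 for Folr1, which passed, and 0.68 for Kl, 0.65 for Clic6 and 0.52 for Kcne2, which did not. The rank correlation passed in that setting for Kcnj13 and not for Folr1 (adjusted permutation p = 0.0157 and 0.0713). Igf2 had r = 0.71 and rho = 0.71 in that setting, against 0.39 and 0.36 over all 12 arrays, and did not pass either (adjusted permutation p = 0.115). The relations of Kl, Clic6 and Kcne2 therefore passed the threshold only with those arrays. Within the 6 high freezing arrays alone r ran from -0.07 (Aqp1) to 0.95 (Folr1), and within the 6 low freezing arrays alone from 0.16 (Aqp1) to 0.95 (Kl). None of these passed after adjustment, the smallest adjusted exact permutation p being 0.0875.

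In the amygdala no gene passed with Ttr, with r between -0.12 and 0.12 (permutation, adjusted p = 0.979 for each of the 7). With the dimmest probe set of Ttr, an alternative added after the values had been seen, r in the amygdala was 0.38 to 0.60 and still none passed (lowest adjusted permutation p = 0.0954).

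The 7 genes other than Ttr varied together in the amygdala. With Clic6 in place of Ttr, also added afterwards, 6 of 7 passed there: Kcnj13 and Kl (r = 0.97 each), Aqp1 (0.96), Kcne2 (0.95), Folr1 (0.93) and Igf2 (0.85), with adjusted permutation p between 3.5e-05 and 0.00109. Those 6 passed by r also without the 2 arrays farthest from the median of Clic6 and within either freezing label alone. The rank correlation of Igf2 did not pass within the low freezing amygdala arrays (adjusted exact permutation p = 0.0907). In the hippocampus 5 of 7 passed by r with Clic6 and 3 of 7 without the 2 farthest arrays, and within a freezing label 0 of 7 in high freezing and 5 of 7 in low freezing arrays. By rank correlation, Ttr and Kl passed in the low freezing hippocampus arrays. Folr1, Kcne2 and Kcnj13 did not (adjusted exact permutation p of rho = 0.308, 0.245 and 0.0907). Over the 21 pairs of the 7 genes the median r was 0.93 in the amygdala (lowest 0.80) and 0.65 in the hippocampus (lowest 0.25). The difference between regions in these correlations was not tested.

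**Figure D4:**
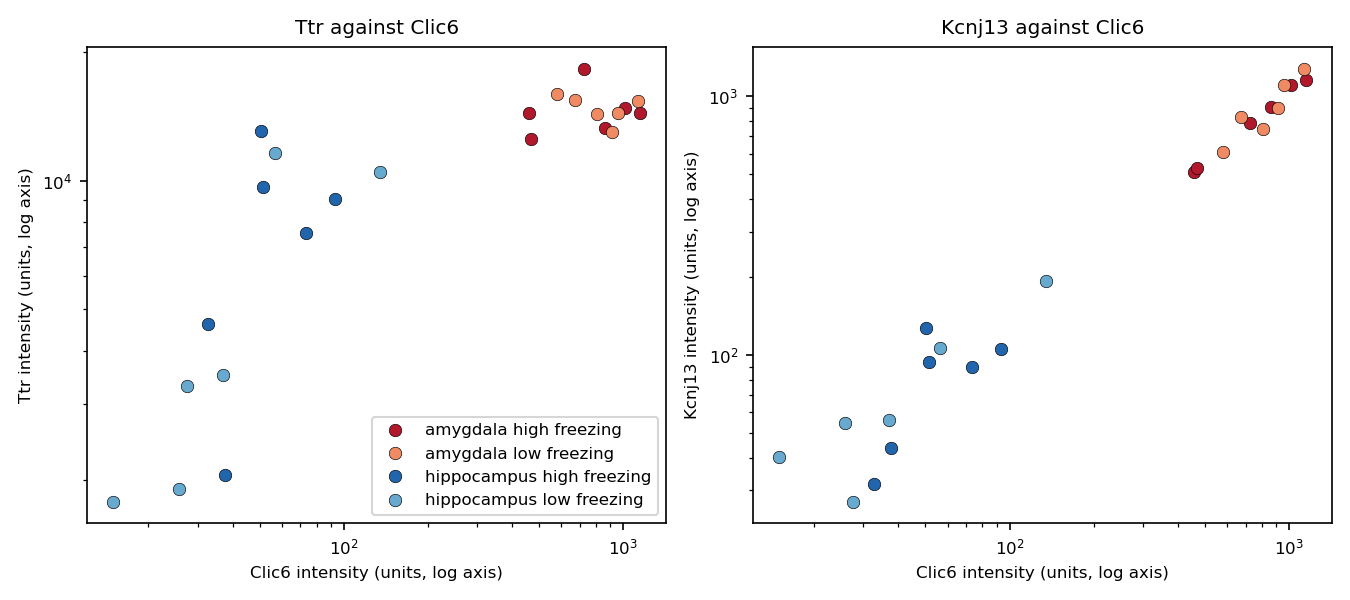
Intensity of Ttr (left) and of Kcnj13 (right) against that of Clic6, both axes logarithmic, 1 point per array in the 4 groups. Kcnj13 rises with Clic6 within the amygdala arrays (r = 0.97) and the hippocampus arrays (r = 0.85). Ttr rises with Clic6 in the hippocampus (r = 0.78), while the amygdala arrays lie flat between 12546 and 18279 units of Ttr (r = 0.06).

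Igf2 is made in the meninges as well as in the plexus, so that it was also set against the mean log2 value of the 18 leptomeningeal and stromal genes, a relation chosen after the values had been seen (4 correlations). In the hippocampus Igf2 followed that mean with r = 0.79 (permutation p = 0.00012, adjusted p = 0.00048) and rho = 0.88 (adjusted permutation p = 0.00136). Its r was 0.88 without the 2 farthest arrays, 0.79 within the high freezing arrays and 0.84 within the low freezing arrays. Clic6 had r = 0.42 and rho = 0.43 with the same mean (adjusted permutation p = 0.233 and 0.236). Its r depended on the arrays used, at 0.17 without the 2 farthest, 0.79 within the high freezing arrays and 0.27 within the low freezing arrays. The difference between the correlations of Igf2 and Clic6 was not tested. Igfbp2 and Bmp6, 2 of the 18 genes, varied with the average of the 8 choroid plexus genes. Their r was 0.76 and 0.64 in the hippocampus and 0.95 and 0.78 in the amygdala. Their part in the list mean was not tested.

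In the amygdala neither gene passed with that mean, with r = 0.43 for Igf2 and 0.07 for Clic6 (adjusted permutation p = 0.233 and 0.838), and their rho was 0.42 and 0.18. These values too depended on the arrays used. Without the 2 farthest arrays r was 0.65 for Igf2 and 0.59 for Clic6. Within the high freezing arrays it was 0.43 for Igf2 and -0.01 for Clic6, and within the low freezing arrays 0.75 for Igf2 and 0.77 for Clic6.

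Of other genes, those whose pattern was most like the average of the 8 genes are named as a description. Over the 12 amygdala arrays they were Ezr (r = 0.95), Igfbp2 (0.95), Ecrg4 (0.95), Slc31a1 (0.94), Calml4 (0.93), Plxnb2 (0.93), Lgals1 (0.93), Ak8 (0.93), Car12 (0.93) and Zfp185 (0.93). Over the 12 hippocampus arrays they were Ecrg4 (0.96), Calml4 (0.92), Atp2b4 (0.90), Sostdc1 (0.90), Ppfia1 (0.90), Slc2a12 (0.89), Lrrc75b (0.87), Bahd1 (0.86), Ecel1 (0.85) and Col8a2 (0.85). Ecrg4 and Calml4 stood in both lists. Among 12482 genes, 2.20% had r over 0.7 in the amygdala and 0.753% in the hippocampus.

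Of the 27 further choroid plexus genes, 20 had r over 0.7 with that average in the amygdala and 11 in the hippocampus. The 27 hold the 7 genes kept by the filter only through their amygdala arrays, which are dim in the hippocampus. Of these 7, Otx2, Cldn2, Slc4a5 and Steap1 are among the 11 in the hippocampus. Otx2, Slc4a5, Steap1 and Col8a1 are among the 20 in the amygdala. Of the 12 ependymal genes, 4 had r over 0.7 in the amygdala and 0 in the hippocampus. Mlf1, among those 4, was also kept only through the amygdala. Of the 12 oligodendrocyte genes 0 had so in either region, where their median r was -0.51 and -0.41. Arrays of a region share the dissected region, all 24 arrays share the scaling, and these correlations carry no test.

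The second comparison asked how high freezing mice differ from low freezing mice in each region. None of the 8 genes was called in the amygdala or in the hippocampus by limma, and none had an unadjusted p under 0.05 at its brightest probe set. Calls were rare over the whole table, at 0.0555% of probe sets in the amygdala and 0.0518% in the hippocampus, while 10.8% and 11.8% had an unadjusted p under 0.05. The group ranges of high and low freezing mice overlapped for each of the 8 genes in both regions, where 0.555% of all probe sets did not overlap in the amygdala and 0.818% in the hippocampus.

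In the amygdala the high minus low differences of the 8 genes lay between -0.16 and 0.06 on the log2 scale, with a median of -0.09, against a median of 0.01 over all probe sets (limma, adjusted p between 0.876 and 0.997). Clic6 was at -0.16 (95% confidence interval -0.73 to 0.41) and Ttr at -0.02 (-0.79 to 0.75). Folr1 alone lay above 0, at 0.06 (-0.59 to 0.71).

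In the hippocampus 7 of the 8 lay above 0, with a median of 0.20, against 0.01 over all probe sets (limma, adjusted p between 0.486 and 0.991). Ttr averaged 7663 ± 3896 units in high freezing mice and 5426 ± 4414 in low freezing mice (SD, n = 6 each), a log2 difference of 0.68 (95% confidence interval -0.09 to 1.45). Kcne2 averaged 26.5 ± 7.11 units in high freezing mice and 20.1 ± 23.6 in low freezing mice (SD, n = 6 each), at 0.42 (-0.14 to 0.97). The other genes lay between -0.01 (Igf2) and 0.30 (Clic6).

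Of the 12 probe sets kept, 2 of Ttr had an unadjusted p under 0.05 in the hippocampus, at 0.95 and 0.87 on the log2 scale (limma, adjusted p = 0.413 and 0.417). The fit used 1 spread for both regions. The SD within groups of Ttr was 1.07 in the hippocampus and 0.15 in the amygdala at its brightest probe set. Those 2 probe sets were likewise wider in the hippocampus. Their unadjusted p-values, and the interval for Ttr, therefore rest on less spread than the hippocampus arrays showed. The interval for Ttr spans 0 and reaches 1.45, so that these arrays do not show that high and low freezing mice have the same amount. Median intensity of the whole array was also somewhat higher on several high freezing hippocampus arrays (37.6 to 41.6 units, against 36.9 to 38.8 in low freezing mice). Alternatives included quantile normalization and arrays centred on their median. Over 12 alternative settings the difference of Ttr in the hippocampus lay between 0.62 and 0.80 and was not called (limma, adjusted p between 0.453 and 0.582).

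The difference between the freezing differences, amygdala minus hippocampus, lay between -0.70 (Ttr) and -0.02 (Folr1) for the 8 genes, and none passed (limma, adjusted p between 0.885 and 0.997). Of all probe sets tested 0% passed, and 6.07% had an unadjusted p under 0.05. None of the genes in the 15 lists of cell types and pathways was called in a freezing comparison.

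**Figure D5:**
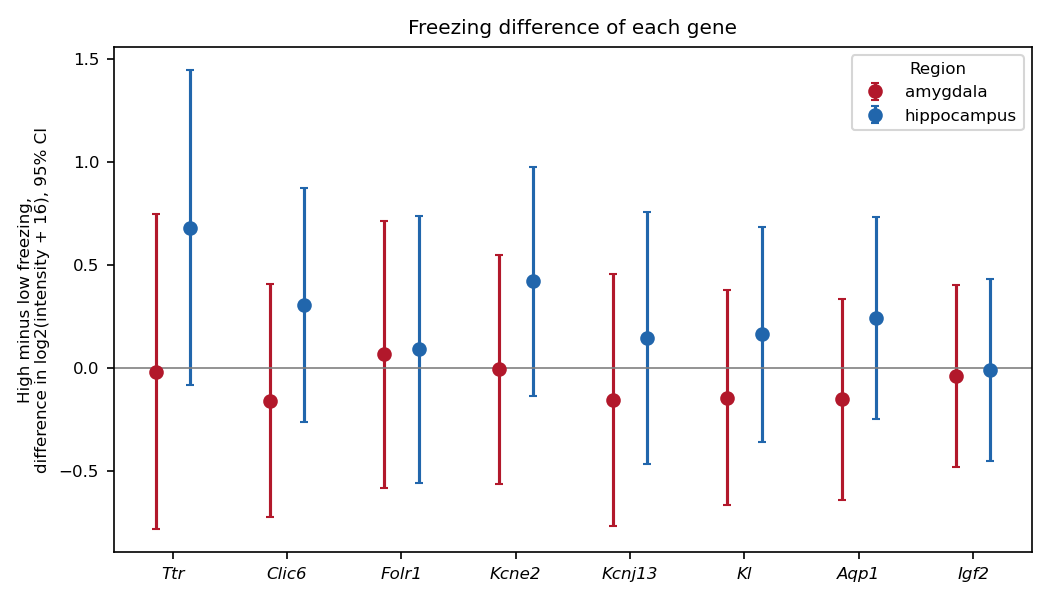
High minus low freezing difference in log2(intensity + 16) for the 8 genes, in the amygdala and in the hippocampus, with 95% confidence intervals from limma (6 arrays a group). All 16 intervals span 0, and the highest estimate is that of Ttr in the hippocampus (0.68). The intervals of a gene use 1 spread for both regions. For Ttr that spread is narrower than the one of the hippocampus arrays and wider than the one of the amygdala arrays.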

How the data were processed

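Expression was measured on 24 one-colour arrays, 6 in each of 4 groups taken from the labels. The authors deposited linear intensity values, 1 per probe set. For the software that made them the sources used here give no name. Each array had a mean of 150 units once its top and bottom 2% were left out. Array medians lay between 36.9 and 43.6 units, arrays of a group correlated between 0.969 and 0.983, and no pair was identical. Precision is limited by the number of arrays, and since nothing says that arrays are separate animals, a p-value here measures array-to-array spread, which may be technical.

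From the deposited intensity values, log2(intensity + 16) was computed. Array medians spanned 0.173 on that scale, under the limit of 0.2, and no normalization was added. The 64 control probe sets and the dimmest 40% by mean were left out, leaving 27022. A model with 1 mean per group was fitted with limma 3.58.1 in R 4.3.3 (intensity trend, two-sided, Benjamini-Hochberg over all probe sets kept). It used 1 estimate of the spread per probe set for all 4 groups. Correlations used two-sided permutation tests with 100000 resamples, or exact ones for 6 arrays, in scipy 1.17.1. The fit was tested on simulated data of 27022 probe sets. Of 100 planted log2 changes of 1, the regional comparison found 99, freezing in the hippocampus 94 and freezing in the amygdala 92. Of 100 planted changes of 0.5 they found 81, 61 and 59. Changes were planted in probe sets drawn at random from all those kept. The 8 genes had an SD within groups of 0.40 to 1.07 in the hippocampus, against a median of 0.19. In the amygdala it was 0.42 to 0.60 for all but Ttr, against a median of 0.20. These rates therefore do not carry over to the 8 genes.

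Symbols came from the platform annotation given (34958 probe sets with 1 symbol, 932 with several, 9211 with none here). Genes were named by rule: all members, up to 4 called genes of each list by size of the regional difference, and the 10 genes most like the members in each region. For some lists fewer are named, and others were named after their values were seen. Probe sets of Ttr with the suffixes x, s or a can share probes with other transcripts. The members and lists were chosen with earlier results of these data known. Alternatives changed the offset, normalization, filter, variance prior, array weights, the arrays in the fit, a replicate block, the probe sets of a gene and each array left out. Sequences are RefSeq's, build GRCm38.p6.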

Additional observations from a re-analysis of the deposited data

Results flagged for a closer look

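A gap test within each group of 6 arrays singled out 2 of 32 sets of values of the 8 genes, where chance singles out about 1 in 20. Kcne2 on hippocampus high 11 was at 40.3 units, the highest of the high freezing hippocampus arrays, with the next at 26.1 and the lowest at 20.3. Aqp1 on hippocampus high 10 was at 8.68 units, the lowest of the same group, with the nearest at 21.4 and the highest at 31.7. Both values lie in the dim part of the scale.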

How the results depend on the processing

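The regional difference kept its direction and its call for all 8 genes under every alternative, with log2 values between 0.99 (Igf2) and 4.08 (Clic6). Leaving out each array in turn also kept all 8. The number of genes called for freezing stayed 0 in both regions and for the interaction. The labels do not say that a number pairs arrays, and the numbers were not taken as pairs. Same-numbered arrays of both regions had deviations correlating between -0.08 and 0.08, with 0 of 12 over 0.1. Each amygdala array was compared with the 6 hippocampus arrays of its freezing label. Of the 12, 5 correlated best with their own number, so that shared animals cannot be told apart from separate ones by this check. With the number as a replicate block, 8 genes were called between regions and 0 in the other comparisons, and among all probe sets 20 for freezing in the hippocampus and 15 in the amygdala.

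Over the whole table the calls for freezing in the hippocampus were 14, against 9 with an offset of 1, 6 without a filter, 5 without the intensity trend, 24 with array weights and 22 with the region alone. In the amygdala they were 15, against 2 without the trend and 0 with the region alone. Leaving out 1 array gave 0 (without low 5) to 33 (without low 2) in the hippocampus and 2 (without low 1) to 56 (without low 6) in the amygdala.

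Some differences near 0 changed sign. The freezing difference of Kcne2 in the amygdala was 0.0023 with an offset of 64 and 0.0025 with array weights. The interaction of Folr1 was 0.021 with an offset of 1, 0.0045 with an offset of 64 and 0.032 with quantile normalization. Leaving out 1 array at a time, the hippocampal freezing difference ran from -0.069 to 0.36 for Folr1, from -0.045 to 0.41 for Kcnj13 and from -0.13 to 0.090 for Igf2. In the amygdala it ran from -0.087 to 0.021 for Ttr, from -0.066 to 0.17 for Folr1, from -0.12 to 0.18 for Kcne2, from -0.33 to 0.024 for Kl and from -0.17 to 0.094 for Igf2. The interaction ran from -0.30 to 0.13 for Folr1 and from -0.16 to 0.11 for Igf2.

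Of the 14 correlations with Ttr 5 passed by r, against 2 without the 2 farthest arrays, 0 within high freezing arrays alone, 0 within low freezing arrays alone (6 arrays each) and 11 with Clic6 in place of Ttr. Signs changed in the amygdala: without the 2 farthest arrays to -0.211 (Clic6), -0.280 (Kcne2), -0.080 (Kcnj13) and -0.181 (Kl), with quantile normalization to -0.075 (Kl), in high freezing arrays to 0.207 (Folr1), 0.037 (Aqp1) and 0.132 (Igf2), and in low freezing arrays to -0.45 (Clic6), -0.57 (Kcne2), -0.20 (Kcnj13) and -0.30 (Kl). With the dimmest probe set of Ttr they changed to 0.40 (Folr1), 0.38 (Aqp1) and 0.42 (Igf2). In the hippocampus Aqp1 was at -0.067 in high freezing arrays. The cause was not tested. Dim hippocampus values, and values of Ttr near the upper end of the scale, limit what these arrays resolve.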
